A study of Mus musculus with 12 samples.

Results

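The transition from 4 h to 7 h of p38-MAPK inhibition was described in whole mouse blastocysts, from 4 of the 12 mRNA-Seq libraries in the series. A gene was included when its level reached at least 1 RPKM (reads scaled to the length of the transcript and the depth of the library) in at least 2 of these 4 libraries, which gave 10866 of the 34245 genes in the table. Of these genes, 9676 reached this level in all 4 libraries, 95 only in both libraries of 4 h, and 124 only in both libraries of 7 h. At the limit, the second-highest log2 RPKM of a gene was 0.0031 just inside and 0.0 just outside it.

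The embryos came from matings of F1 hybrid (C57Bl6 x CBA/W) mice. They were isolated at the 2-cell stage and cultured in KSOM medium with amino acids until E3.5, when pools of 30 were moved into medium holding either SB220025 at 20 µM, which blocks p38-MAPK activity (p38-MAPKi), or the solvent DMSO (control). RNA was taken 4, 7, or 10 h later, with 2 replicates in each of the 6 groups, and libraries were made from polyadenylated RNA. The comparison asked how the transcriptome moved between the 4 h and 7 h time points after E3.5 while the inhibitor was present, and the same interval in control embryos was taken as the reference. Each library mixed trophectoderm, epiblast, and primitive endoderm of 30 embryos, so that fewer cells of a type and less RNA per cell cannot be told apart. The labels number the replicates without saying that the pools came from separate matings or days, and p-values therefore measure the spread between these pools only.

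p38-MAPKs are stress- and cytokine-responsive kinases that are activated by upstream MAP2 kinases and act through kinases such as MK2 and MNK and through transcription factors such as ATF2 and MEF2. During this window the inner cell mass of the blastocyst sorts into epiblast, marked by NANOG and SOX2, and primitive endoderm, marked by GATA6 and later GATA4 and SOX17, while the trophectoderm, marked by CDX2 and GATA3, pumps fluid to expand the cavity. Ribosome production, translation, and mitochondrial respiration are high during this growth.

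The libraries of inhibited embryos had 24337845 and 21618040 reads at 4 h but only 11242313 and 17435561 reads at 7 h, and replicate 1 of 7 h was the shallowest of the 12 libraries, which reached up to 24457312 reads. It held at least 1 read for 14036 genes, against 16378 to 17680 in the other libraries. The replicates of 7 h also stood further apart than any other pair: 936 of the 10866 genes (8.61%) differed by at least 1 log2 unit between them, against 1.67% to 3.64% in the other groups, and the correlation of their log2 values across genes was 0.943 against 0.971 to 0.986. All 6 trophectoderm markers, all 6 epiblast markers, and 5 of 6 primitive endoderm markers reached 1 RPKM in all 4 inhibited libraries, and Sox7 did not. Of 13 defining genes of cumulus, oviduct, fibroblast, and blood cells, none did, 7 had no read in the 4 libraries, and their summed level was 1.97 to 2.82 RPKM per library.

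Across the 10866 genes, limma on the log2 values called 1 gene (0.0092%) at a Benjamini-Hochberg adjusted p under 0.05, and this gene fell. Without adjustment, 1031 genes (9.49%) had a p under 0.05, of which 587 (5.4%) were higher and 444 (4.09%) lower at 7 h. The median change was -0.09 on the log2 scale and the median size of a change 0.25, and 458 genes (4.21%) moved by at least 1 log2 unit, 221 upward and 237 downward. Both libraries of 7 h lay above both libraries of 4 h for 1808 genes (16.6%) and below them for 2628 genes (24.2%). In control embryos over the same interval, limma called 53 of 10776 genes (0.492%), 31 higher and 22 lower, the median size of a change was 0.139, and 80 genes (0.742%) moved by at least 1 log2 unit. In these embryos 4.79% of genes had an unadjusted p under 0.05, with 3.94% higher and 0.844% lower, and the 7 h libraries lay above the 4 h libraries for 25.3% of genes and below them for 3.69%. The control fit used a shared spread for all genes of the same level and the inhibitor fit did not. The counts of called genes are therefore not on the same scale. The 53 control calls became 0 after median centring and in the fit to 12 libraries. Levels in inhibited embryos thus moved by larger amounts than in control embryos, but the replicates at 7 h also disagreed more, and few genes exceeded that spread.

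The called gene, AC139579.1 (ENSMUSG00000111339.1, GRCm38 chromosome 7, 102235854 to 102237530, plus strand), had 14.0 and 9.85 RPKM at 4 h and 2.94 and 2.56 RPKM at 7 h. The libraries did not overlap, and the level fell by 2.10 on the log2 scale (standard error 0.279; limma, adjusted p = 0.0428). It rests on 207 and 129 reads at 4 h and on 20 and 27 reads at 7 h, and its name falls outside the rule for naming genes, so it was chosen after its values were seen. Control embryos held 11 and 16.0 RPKM at 4 h and 11.5 and 10.7 RPKM at 7 h, and inhibited embryos were back at 17.2 and 17.0 RPKM at 10 h. The difference from the control change was -1.84 (limma, adjusted p = 0.582). AC139579.1 lies wholly inside Pgap2, a gene of GPI-anchor maturation on the same strand, so that their reads may be shared. Pgap2 had 6.54 and 6.26 RPKM at 4 h and 3.5 and 4.33 RPKM at 7 h, a difference of -0.72 that missed the test (limma, adjusted p = 0.472). The call for AC139579.1 was lost in 10 of its 17 alternative settings, with limma adjusted p-values between 1.87e-07 and 0.644, while the change stayed between -2.39 and -1.12 in all of them.

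No other gene passed the test, so the genes that follow are those with the smallest p in each direction among well-expressed genes whose libraries did not overlap. Fgfbp3, which binds FGFs in the extracellular space, had 9.51 and 8.33 RPKM at 4 h and 25.3 and 21.3 RPKM at 7 h, a log2 change of 1.38 ± 0.220 (standard error; limma, adjusted p = 0.102). Oxt, the oxytocin hormone gene, had 13.5 and 8.70 RPKM at 4 h and 29.5 and 29.8 RPKM at 7 h, a log2 change of 1.45 ± 0.239 (limma, adjusted p = 0.102). Both 7 h libraries lay far above the higher of the 4 h libraries in both genes. In control embryos Fgfbp3 had 5.25 and 7.32 RPKM at 4 h and 12.6 and 8.55 RPKM at 7 h (limma, adjusted p = 0.049, just under the threshold). Oxt had 7.30 and 6.53 RPKM at 4 h and 10.4 and 9.33 RPKM at 7 h in these embryos. At 10 h of inhibition Oxt stood at 18.6 and 17.1 RPKM and Fgfbp3 at 11.3 and 12.3 RPKM, between the levels of 4 h and 7 h for both genes.

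Ppp1r14a, an inhibitor of myosin phosphatase, had 42.9 and 53.1 RPKM at 4 h and 111 and 86.3 RPKM at 7 h. Rtkn had 16.6 and 11 RPKM at 4 h and 28.1 and 27.7 RPKM at 7 h. Rhox5, an X-linked homeobox gene, had 19.0 and 14.7 RPKM at 4 h and 30.7 and 45.3 RPKM at 7 h. In control embryos Rhox5 lay lower rather than higher at 7 h, with 23.2 and 15.3 RPKM at 4 h and 17.8 and 8.29 RPKM at 7 h. The agouti signalling gene, a, had 8.79 and 9.89 RPKM at 4 h and 33.9 and 16.9 RPKM at 7 h, so that its size of change depended on replicate 1 more than for the other genes here. The log2 changes of these 4 genes lay between 1.04 and 1.36 (limma, adjusted p = 0.232 for each), and the control changes were 0.22 for Ppp1r14a, 0.63 for Rtkn, -0.63 for Rhox5, and 0.35 for a.

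The differences of the genes chosen on the lower side were smaller. Espl1, the separase that cleaves cohesin at anaphase, had 23.2 and 17.7 RPKM at 4 h and 10.5 and 12.8 RPKM at 7 h. Dhx9, an RNA helicase, had 38.7 and 30.8 RPKM at 4 h and 19.8 and 22.1 RPKM at 7 h. Zfp36l2, which binds AU-rich elements and promotes mRNA decay, had 19.0 and 15.0 RPKM at 4 h and 7.71 and 11.1 RPKM at 7 h. In each of these genes the controls did not lie lower at 7 h, with log2 changes of 0.06 for Espl1, 0.05 for Dhx9, and 0.33 for Zfp36l2. Atg2a, a lipid transfer protein of autophagosome growth, had 49.7 and 36.3 RPKM at 4 h and 21.4 and 28.3 RPKM at 7 h. G3bp2, a stress granule protein, had 67.1 and 60.4 RPKM at 4 h and 40.8 and 42.8 RPKM at 7 h. Tdgf1 (Cripto), a co-receptor for Nodal, had 17.8 and 17.4 RPKM at 4 h and 12.5 and 8.33 RPKM at 7 h. Tdgf1 was the one of these 6 genes that also lay lower at 7 h in control embryos, with 17.5 and 21.7 RPKM at 4 h and 15.4 and 10.3 RPKM at 7 h. The 10 genes chosen on this side, which also included Cyb561d2, Smyd5, Decr2, and Rab11fip4, had log2 changes between -0.94 and -0.61 (limma, adjusted p between 0.252 and 0.341).

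**Figure D1:**
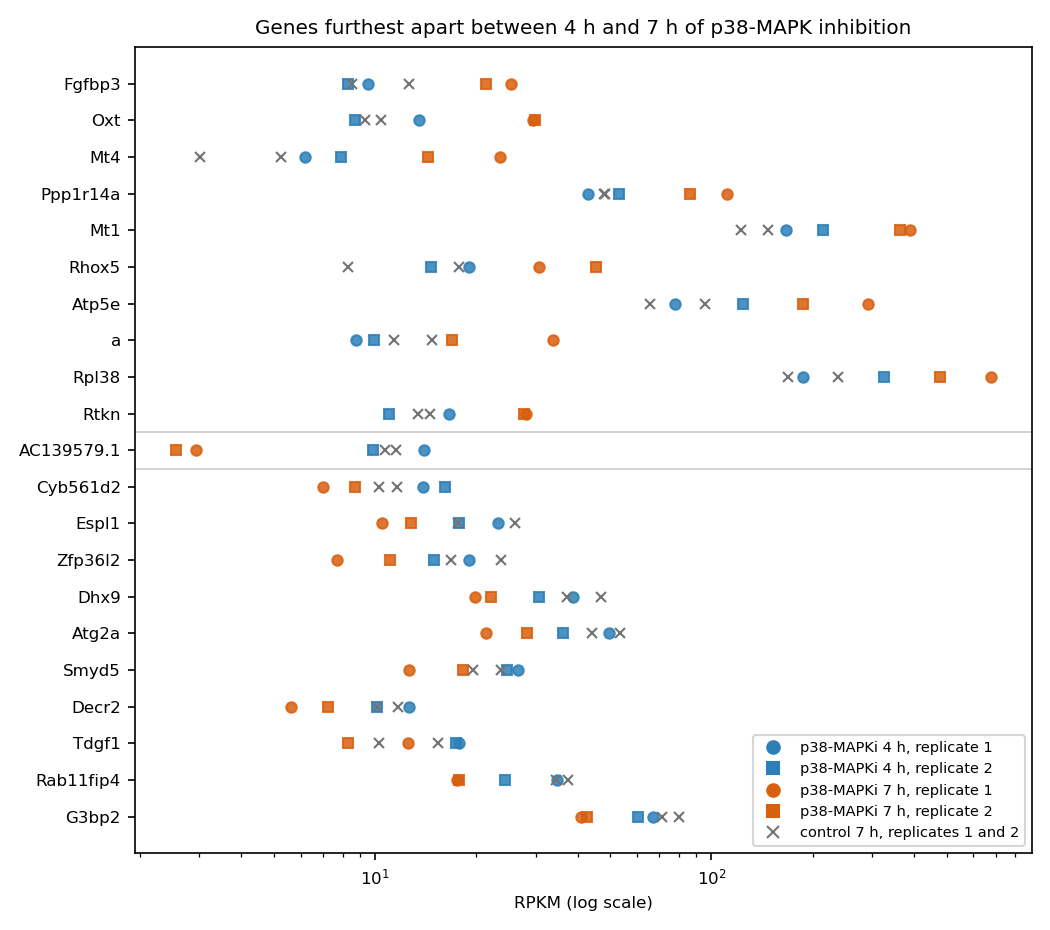
RPKM on a log scale (horizontal axis) of the 10 genes chosen on the higher side, of AC139579.1, and of the 10 genes chosen on the lower side; blue marks are the p38-MAPKi libraries of 4 h, orange marks those of 7 h (circle, replicate 1; square, replicate 2), and grey crosses both control libraries of 7 h. In every gene shown the orange and blue marks do not overlap, which the choice required of all but AC139579.1, and AC139579.1 has the widest gap, from 9.85 down to 2.94 RPKM.

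Metallothioneins, small cysteine-rich proteins that bind zinc and copper, were among the higher genes. Their promoters are shown because Mt1 and Mt2 are known targets of the metal-responsive factor MTF1, and that of Mt4 is given beside them. Mt1 had 167 and 214 RPKM at 4 h and 390 and 364 RPKM at 7 h (log2 change 0.99 ± 0.197; limma, adjusted p = 0.232). Mt4 had 6.19 and 7.90 RPKM at 4 h and 23.5 and 14.4 RPKM at 7 h (log2 change 1.39 ± 0.267; limma, adjusted p = 0.232), and Mt2 had 426 and 441 RPKM at 4 h and 731 and 758 RPKM at 7 h (log2 change 0.78 ± 0.191; limma, adjusted p = 0.252). All 3 genes were higher in both 7 h libraries than in either 4 h library. The choice of genes required this of Mt1 and Mt4, and Mt2 was named after its values were seen. In control embryos Mt1 had 133 and 132 RPKM at 4 h and 147 and 122 RPKM at 7 h, and the difference of the Mt1 change between inhibited and control embryos was 0.98 (limma, adjusted p = 0.658). The RefSeq promoters of these genes on GRCm38.p6 are given 5′ to 3′ for the 250 bases before the annotated start, with capitals at each TGCACNC or TGCGCNC, the core letters of a metal response element, on either strand.
Mt1 (chr8:94178839-94179088, plus strand): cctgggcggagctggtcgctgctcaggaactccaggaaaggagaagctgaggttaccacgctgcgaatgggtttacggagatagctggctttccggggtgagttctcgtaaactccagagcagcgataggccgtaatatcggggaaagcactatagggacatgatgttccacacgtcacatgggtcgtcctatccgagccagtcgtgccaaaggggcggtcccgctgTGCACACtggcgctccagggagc
Mt2 (chr8:94172368-94172617, plus strand): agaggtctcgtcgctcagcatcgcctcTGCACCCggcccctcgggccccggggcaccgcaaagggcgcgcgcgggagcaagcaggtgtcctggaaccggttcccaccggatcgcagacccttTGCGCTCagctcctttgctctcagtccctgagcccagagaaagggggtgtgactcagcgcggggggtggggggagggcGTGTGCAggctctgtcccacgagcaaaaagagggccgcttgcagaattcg
Mt4 (chr8:94136954-94137203, plus strand): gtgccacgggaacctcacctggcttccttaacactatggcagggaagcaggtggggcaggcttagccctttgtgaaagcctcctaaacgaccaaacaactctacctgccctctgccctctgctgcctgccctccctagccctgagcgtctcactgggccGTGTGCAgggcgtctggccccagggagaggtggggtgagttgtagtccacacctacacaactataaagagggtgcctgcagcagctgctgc
The letters occurred once for Mt1, 3 times for Mt2, and once for Mt4 in these windows. Bases after the annotated start were not searched, so the counts are not those of a whole promoter. Of all 32851 promoters in the RefSeq table, 21.4% held them at least once and 1.26% at least 3 times, so a single match is common.

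Genes of the cytosolic ribosome lay higher at 7 h of inhibition as a group. None of its genes passed the test across all genes (limma, adjusted p of at least 0.232), so counts of libraries and medians are given, and the members named from each list here and further on, beside the genes fixed by name, were chosen after their values were seen. Over all 10866 genes 16.6% lay above and 24.2% below, which is the reference for such counts here and further on. In the small subunit, 26 of 33 genes were above both 4 h libraries in both 7 h libraries, none was below, and the median log2 change was 0.42, against -0.09 over all 10866 genes. In the large subunit, 34 of 49 were above, none was below, and the median was 0.35. A p under 0.05 before adjustment was found for 14 and 20 genes of the subunits, all higher, where 5.4% of all genes had one in this direction. In control embryos the medians of the 2 subunits were -0.05 for each, and 3 of the 82 genes lay above. The control replicates of 7 h stood on either side of the mean of their 4 h libraries. Their medians were 0.20 and -0.27 for the small subunit and 0.17 and -0.28 for the large subunit.

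Rpl38 had 187 and 326 RPKM at 4 h and 679 and 479 RPKM at 7 h (log2 change 1.21 ± 0.261; limma, adjusted p = 0.232). Rpl39 had 97.8 and 170 RPKM at 4 h and 349 and 213 RPKM at 7 h, and Rps21 had 438 and 649 RPKM at 4 h and 1210 and 869 RPKM at 7 h. In all 3 genes replicate 2 of 4 h was well above replicate 1, and the 7 h libraries were above both. The control libraries of Rpl38 held 232 and 227 RPKM at 4 h and 238 and 169 RPKM at 7 h. Ribosomal protein mRNAs start with a tract of pyrimidines that controls their translation, and 40 bases around the RefSeq start of these genes (GRCm38.p6, gene strand, 5′ to 3′) are shown with the letters CTTTCC, where present, in capitals.
Rpl38 (chr11:114668560-114668599, plus strand): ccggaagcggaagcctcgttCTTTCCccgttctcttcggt
Rpl39 (chrX:37085203-37085242, minus strand): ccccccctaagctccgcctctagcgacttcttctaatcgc
Rps21 (chr2:180257359-180257398, plus strand): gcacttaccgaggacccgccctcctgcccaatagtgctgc
On the gene strand the letters CTTTCC were found in 10 of 72 such windows of tested ribosomal protein genes (13.9%) and in 1.95% of all 32851 windows, and on the other strand in 0 and 1.74%, respectively. The table held a promoter for 61 of the 82 tested genes, some with more than 1, and a match of letters is a description only.

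Nuclear genes of the respiratory chain moved in the same direction. Of the 36 tested genes of complex I, which takes electrons from NADH, 25 lay above both 4 h libraries and 1 lay below, with a median log2 change of 0.49, against 0.03 in control embryos. The control replicates of 7 h were at 0.25 and -0.21 for this list. Of 41 genes of complexes II to IV and the ATP synthase, 25 lay above and 5 below, with a median of 0.36. Atp5e, the epsilon subunit of the ATP synthase, had 77.8 and 124 RPKM at 4 h and 293 and 187 RPKM at 7 h, and 88.6 and 87.9, then 96.0 and 65.7 RPKM in control embryos (log2 change with inhibitor 1.25 ± 0.257; limma, adjusted p = 0.232). Ndufa5 had 60.5 and 92.9 RPKM at 4 h and 202 and 120 RPKM at 7 h, and Atp5k had 122 and 207 RPKM at 4 h and 399 and 286 RPKM at 7 h. Among the genes that lay below, Ndufs1, the largest complex I subunit, had 18.3 and 16.0 RPKM at 4 h and 15.9 and 15.2 RPKM at 7 h, and the flavoprotein Sdha of complex II had 56.0 and 53.1, then 43.1 and 50.1 RPKM. The 13 protein-coding genes of the mitochondrial genome are in the table without a read in any of the 12 libraries and could not be compared.

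Other housekeeping complexes were less uniform. Of 78 mitochondrial ribosome genes, 26 lay above and 7 below (median 0.15), and of 38 proteasome genes, 14 lay above and 4 below (median 0.19). Of 65 splicing genes 15 lay above (23.1%, against 16.6% of all genes) and 19 below (29.2%, against 24.2%), with a median of 0.0. The small Sm-ring genes Snrpg, with 42.3 and 49.9 RPKM at 4 h and 101 and 74.9 RPKM at 7 h, and Snrpf, with 48.6 and 66.0 RPKM and then 113 and 99.1 RPKM, lay above. The large scaffold Srrm2, with 38.9 and 22.6 RPKM at 4 h and 17.2 and 20.9 RPKM at 7 h, lay below. Translation factors had a median of -0.01 (5 of 50 above, 8 below), and ribosome biogenesis genes a median of -0.05 (8 of 66 above, 21 below). Mybbp1a, a nucleolar protein of rRNA synthesis, had 98.5 and 76.2 RPKM at 4 h and 58.0 and 76.3 RPKM at 7 h. Of the 20 aminoacyl-tRNA synthetase genes, 1 lay above and 10 below (median -0.16). The medians of these last 3 lists thus lay closer to the -0.09 of all genes than those of the ribosomal proteins did. The ribosome biogenesis and translation factor medians were above -0.09, and after median centring they were 0.07 and 0.10. Their signs turned in 4 and 5 alternative settings, respectively.

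Among all lists with at least 3 tested genes, the sign of the median held in every alternative for both ribosomal subunits, both respiratory lists, the proteasome, antioxidant genes, aminoacyl-tRNA synthetases, zinc finger genes, mitosis, licensing, trophectoderm, Hippo, FGF, junctions, fluid transport, BMP, and DNA methylation. It turned in at least 1 alternative for each of the others, including the mitochondrial ribosome (-0.01 without 1 library), the cytoskeletal genes (0.02), the p38-MAPK cascade (0.02), and p53 targets (-0.07).

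**Figure D2:**
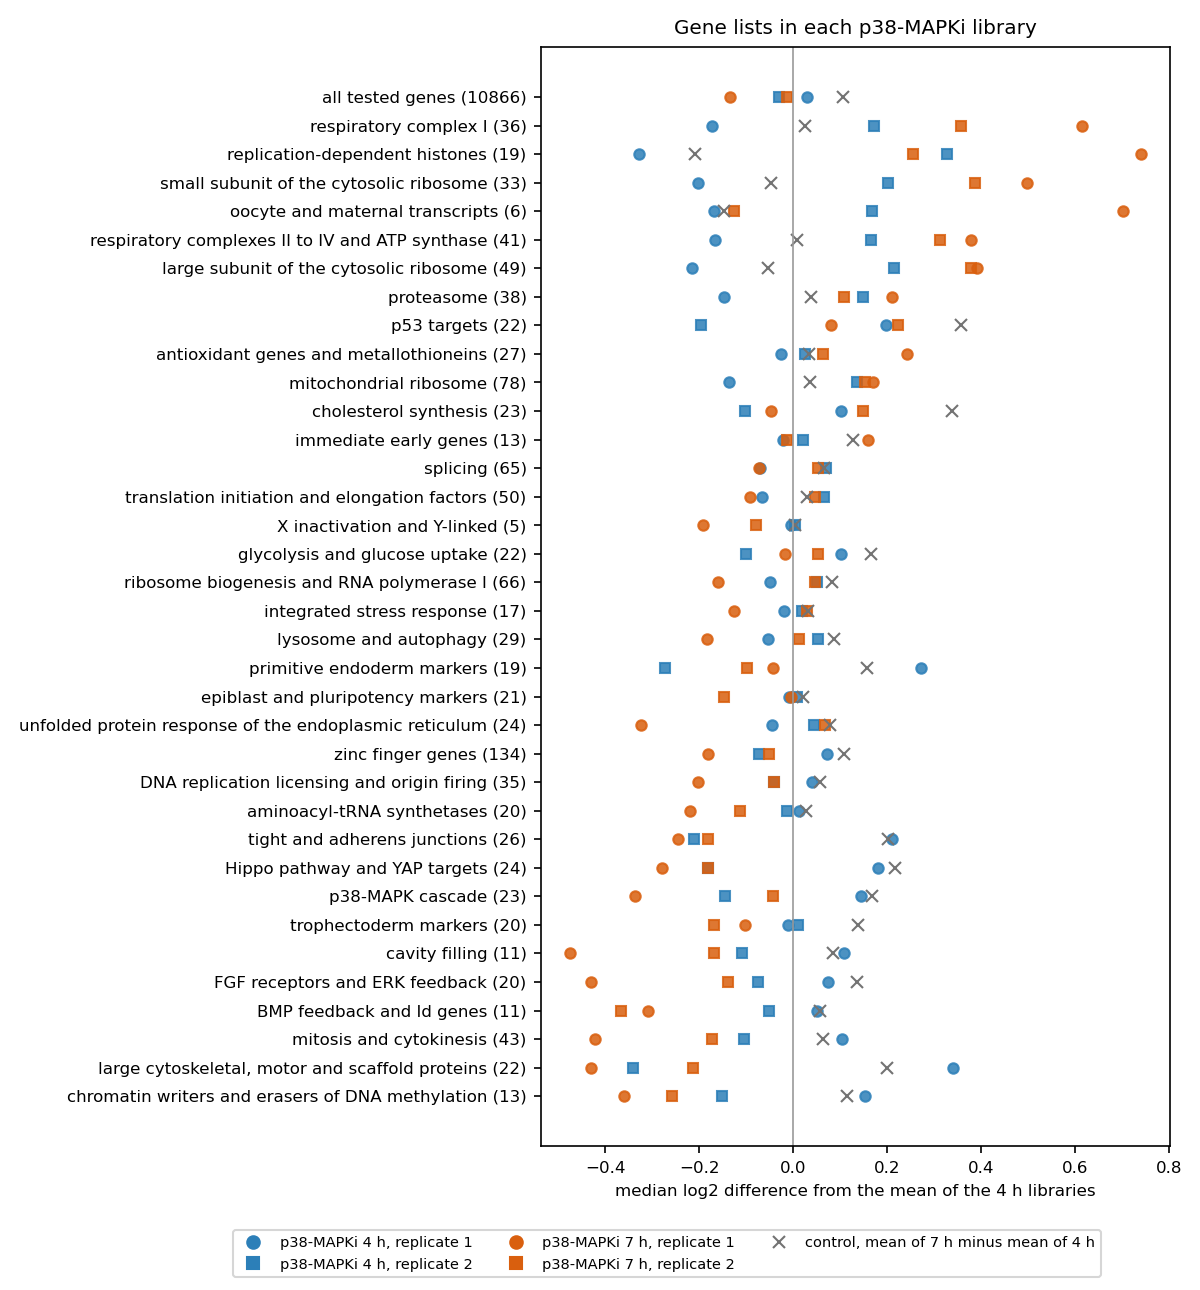
Median log2 difference from the mean of both 4 h libraries (horizontal axis) for each gene list with at least 5 tested genes (number in brackets) in the p38-MAPKi libraries of 4 h (blue) and 7 h (orange; circle, replicate 1; square, replicate 2), and the median control change from 4 h to 7 h (grey cross). The medians of complex I and of both ribosomal subunits are above both 4 h marks in both 7 h libraries, while the 4 h replicates stand up to 0.43 apart for the ribosomal lists.

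The change followed the length of a gene's exons, which is the summed length of its annotated exons here. Genes under 1000 bases (620 genes) had a median log2 change of 0.39, those from 1000 to 2000 bases 0.14, those from 2000 to 4000 bases -0.04, those from 4000 to 8000 bases -0.16, and the 1605 genes over 8000 bases -0.23. Of the shortest genes 41.1% lay above and 8.23% below, and of the longest 4.55% lay above and 31.0% below. Across the 10866 genes the Spearman correlation of the change with log2 length was -0.332, and it was -0.306 and -0.308 for each of the 7 h libraries against the mean of the 4 h libraries. In control embryos it was 0.081 across 10776 genes. Replicates of a group also differed along length. The correlation was 0.447 for replicate 1 minus replicate 2 of inhibited embryos at 4 h and -0.419 for control embryos at 7 h. Genes are not independent replicates, and these values are given as descriptions.

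The ribosomal and respiratory lists hold short genes, with a median exon length of 1734 bases for the small ribosomal subunit against 4011 bases over all tested genes. The list of p53 targets, which also had a positive median, did not, with 4214 bases. When each library's trend on length was removed, the medians were 0.28 for the small subunit, 0.32 for the large subunit, 0.41 for complex I, and 0.31 for complexes II to IV and the ATP synthase, against -0.002 over all genes. Leaving out each library in turn gave medians from 0.22 to 0.61 for the small subunit and from 0.31 to 0.65 for complex I. On reads thinned to one depth, an alternative chosen after seeing the data, the medians were 0.43 for the small subunit, 0.36 for the large subunit, and 0.49 for complex I, against 0.42, 0.35, and 0.49 on all reads. Thinning at random leaves the expected change of well-read genes as it was, so these near-equal medians say nothing on depth. What else moved with length was not tested.

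**Figure D3:**
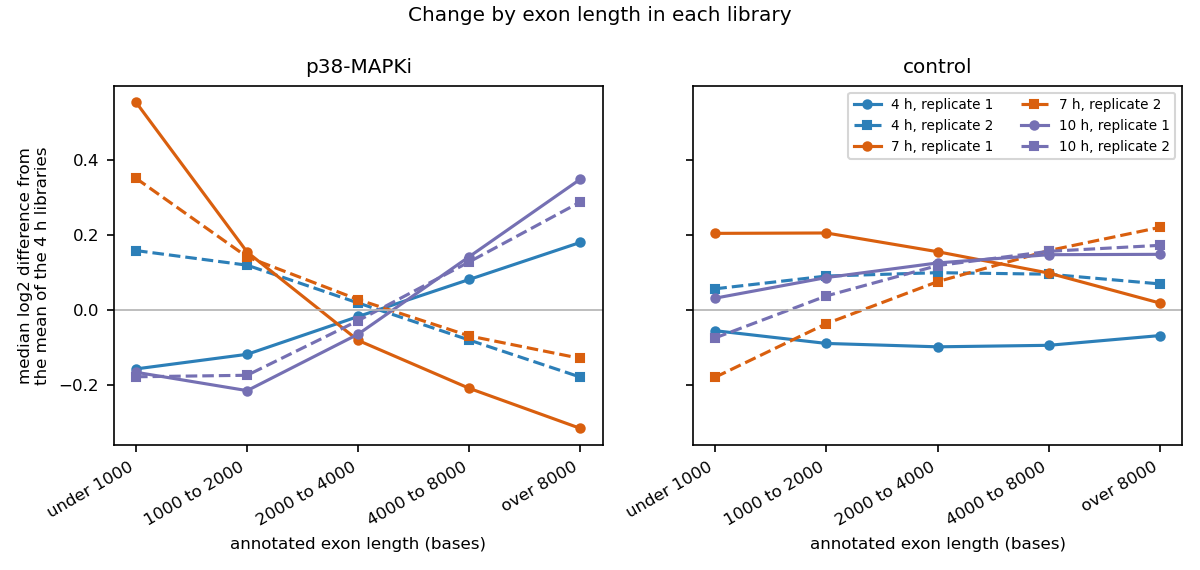
Median log2 difference from the mean of the 4 h libraries of the same treatment (vertical axis) by annotated exon length in bases (horizontal axis), for p38-MAPKi (left) and control (right) libraries; solid lines and circles are replicate 1, dashed lines and squares replicate 2. With inhibitor both 7 h libraries slope downward, from 0.55 and 0.35 for genes under 1000 bases to -0.32 and -0.13 over 8000 bases, and both 10 h libraries slope upward.

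The lists of mitosis and of large cytoskeletal proteins, which hold long genes, had negative medians. Of 43 genes of mitosis and cytokinesis, 20 lay below both 4 h libraries (46.5%, against 24.2% of all genes) and 2 above (4.65%, against 16.6%), with a median of -0.31. Besides Espl1, the spindle gene Aspm had 4.26 and 2.71 RPKM at 4 h and 1.33 and 2.45 RPKM at 7 h, and Top2a, the topoisomerase that untangles chromosomes, had 28.0 and 22.2 RPKM at 4 h and 14.7 and 20.9 RPKM at 7 h. All 22 large cytoskeletal, motor, and scaffold genes (median exon length 13482 bases) had negative changes, with a median of -0.32. Yet only 3 of them (13.6%, against 24.2% of all genes) lay below both 4 h libraries, since the 4 h replicates themselves were spread. The medians of these replicates stood at 0.341 and -0.341 around their mean, wider than the change. With the length trend removed these medians were -0.18 for mitosis and -0.09 for the cytoskeletal genes. Genes of replication licensing had a median of -0.15 (3 of 35 above, 12 below), and 134 zinc finger genes a median of -0.12 (12 above, 31 below), where the 23.1% below was near the 24.2% of all genes.

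None of the fixed lineage genes passed the test, and the factors Nanog, Pou5f1, Sox2, Cdx2, and Gata3 differed least between the times. Nanog had 109 and 139 RPKM at 4 h and 123 and 105 RPKM at 7 h, and Sox2 had 35.0 and 34.6 RPKM at 4 h and 31.0 and 30.5 RPKM at 7 h. Pou5f1 had 446 and 480 RPKM at 4 h and 503 and 487 RPKM at 7 h. The Nanog libraries overlapped between the times, while the small differences of Sox2 and Pou5f1 did not, and no log2 change of the 3 exceeded 0.18 in size. In the list of 21 epiblast and pluripotency genes 3 lay above (14.3%, against 16.6% of all genes) and 6 below (28.6%, against 24.2%), with a median of -0.10. The widest gap was that of Prdm14, a low-level regulator of pluripotency, with 1.41 and 1.19 RPKM at 4 h and 0.0312 and 0.582 RPKM at 7 h. Both 7 h levels were under 1 RPKM, so Prdm14 was included only through its level at 4 h. Besides Tdgf1, described above, those below included Esrrb, a nuclear receptor of naive pluripotency, with 16.1 and 13.6 RPKM at 4 h and 8.21 and 10.4 RPKM at 7 h. Dppa3, a maternal and pluripotency factor, had 1070 and 1590 RPKM at 4 h and 2280 and 1800 RPKM at 7 h.

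Primitive endoderm factors did not share a direction. Gata6 had 118 and 89.0 RPKM at 4 h and 80.9 and 85 RPKM at 7 h, whereas in control embryos it had 86.7 and 105 and then 101 and 129 RPKM. Gata4 had 1.92 and 1.54 RPKM at 4 h and 1.23 and 1.07 RPKM at 7 h. Sox17 had 1.87 and 1.16 RPKM at 4 h and 2.80 and 1.95 RPKM at 7 h. Both GATA factors lay below their 4 h libraries and Sox17 lay above, at low levels for Gata4 and Sox17, and the adjusted p-values of limma for these genes were 0.65 to 0.738. Pdgfra, the receptor kinase that supports primitive endoderm survival, had 6.09 and 4.36 RPKM at 4 h and 6.87 and 6.09 RPKM at 7 h. Lrp2 (megalin), with 64.0 and 36.4 RPKM at 4 h and 27.6 and 32.5 RPKM at 7 h, and Dab2, its endocytic adaptor, with 45.5 and 33.8 RPKM and then 24.0 and 28.3 RPKM, lay below. Across the 19 tested genes 3 lay above and 4 below, with a median of -0.10.

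The trophectoderm factor Cdx2 had 151 and 158 RPKM at 4 h and 158 and 144 RPKM at 7 h, and Gata3 had 62.5 and 70.7 RPKM at 4 h and 67.2 and 57.2 RPKM at 7 h. Eomes had 30.1 and 23.4 RPKM at 4 h and 19.0 and 24.1 RPKM at 7 h. The libraries of the 2 times overlapped for each of these 3 genes. Among all 20 genes 5 lay above and 8 below (median -0.21). Sct, the secretin hormone gene, had the largest change of the list, from 7.01 and 10.7 RPKM to 19.6 and 17.1 RPKM (log2 change 1.08; limma, adjusted p = 0.232), and in control embryos it had 6.80 and 8.49 and then 8.96 and 6.90 RPKM.

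**Figure D4:**
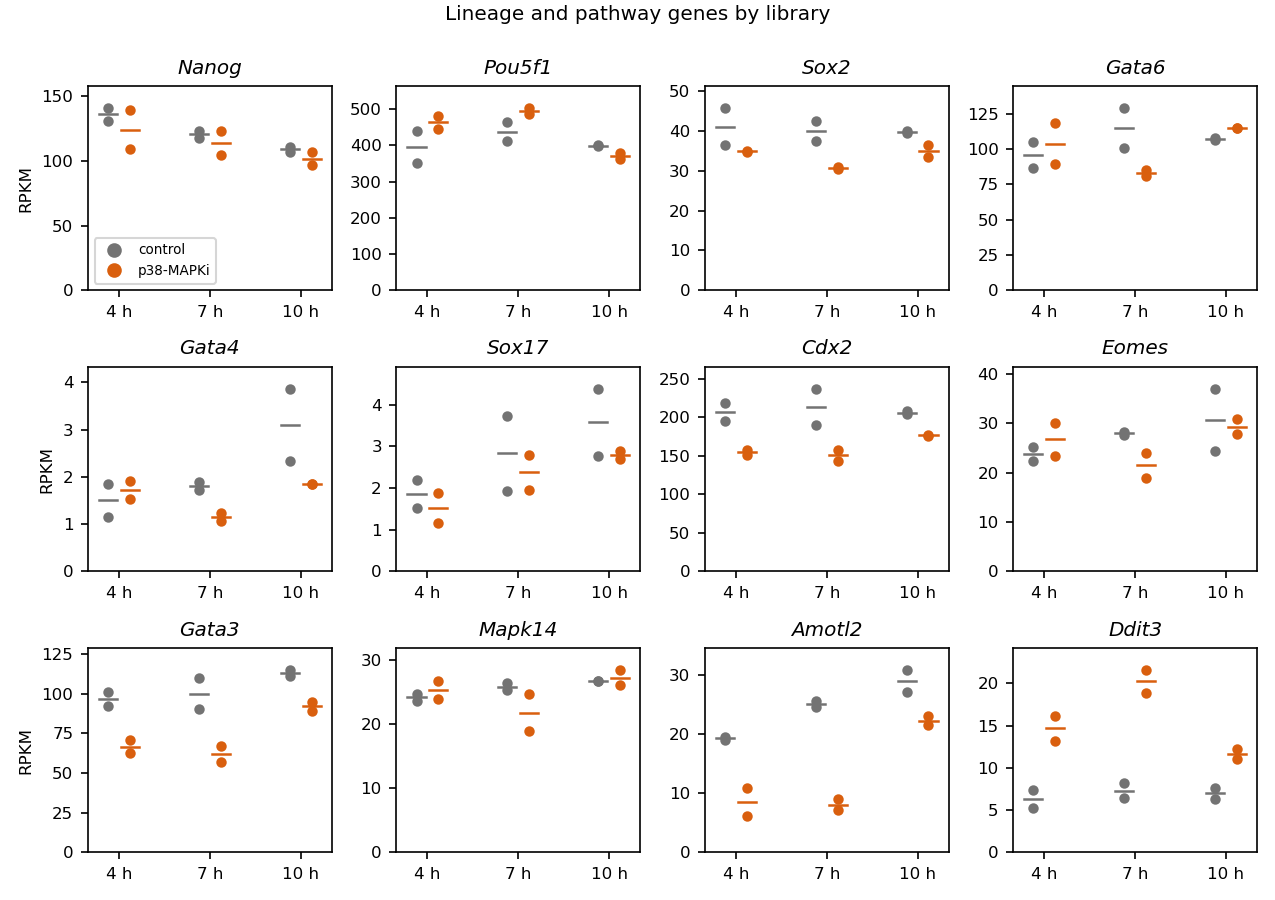
RPKM (vertical axis, from 0) of 12 lineage and pathway genes at 4, 7, and 10 h in control (grey) and p38-MAPKi (orange) embryos; each point is a library and each short line the mean of 2. The orange points of 4 h and 7 h overlap for Nanog, Cdx2, Eomes, Gata3, Mapk14, and Amotl2, and Ddit3 is above the control points at both times.

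Genes of the FGF pathway, which instructs primitive endoderm through ERK, had a negative median. Of 20 tested receptors, adaptors, and feedback genes, 7 lay below both 4 h libraries (35.0%, against 24.2% of all genes) and 1 above (5.0%, against 16.6%), with a median of -0.28 that ran from -0.43 to -0.14 without 1 library. Etv5, a transcription factor that reports ERK activity, had 7.64 and 6.97 RPKM at 4 h and 2.10 and 4.58 RPKM at 7 h, a log2 change of -1.23 (limma, adjusted p = 0.328). Dusp6, the phosphatase that restrains ERK, had 3.94 and 3.04 RPKM at 4 h and 2.22 and 2.22 RPKM at 7 h. The ligand Fgf4 had 3.91 and 3.32 RPKM at 4 h and 4.20 and 2.67 RPKM at 7 h. Of its receptors, Fgfr1 had 14.4 and 11.2 RPKM at 4 h and 7.91 and 9.99 RPKM at 7 h, which did not overlap, and Fgfr2 had 9.93 and 7.80 RPKM at 4 h and 8.55 and 6.43 RPKM at 7 h, which did.

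SB220025 acts on the kinase proteins, and the mRNA of the kinases was compared as part of their cascade. Mapk14 (p38α) had 26.8 and 24.0 RPKM at 4 h and 18.9 and 24.7 RPKM at 7 h, and Mapk13 (p38δ) had 11 and 15.3 RPKM at 4 h and 15.0 and 20.0 RPKM at 7 h. Both pairs of libraries overlapped. Mknk1, the kinase MNK1 downstream of p38 and ERK, had 4.98 and 5.00 RPKM at 4 h and 3.06 and 3.22 RPKM at 7 h, and Mapkapk2 (MK2) had 15.0 and 13.4 RPKM at 4 h and 18.5 and 15.6 RPKM at 7 h. Of 23 genes of the cascade 2 lay above (8.7%, against 16.6% of all genes) and 6 below (26.1%, against 24.2%), with a median of -0.21.

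Within the Hippo pathway, which sets trophectoderm identity through YAP and TEAD4, none of 24 genes lay above both 4 h libraries and 8 lay below (33.3%, against 24.2% of all genes; median -0.19). In control embryos 8 lay above and 1 below, where 25.3% of all genes lay above. The median with inhibitor was -0.07 with the length trend removed and reached -0.05 without 1 library. Stk3 (MST2), an upstream kinase, had 6.23 and 6.66 RPKM at 4 h and 2.03 and 4.02 RPKM at 7 h (log2 change -1.17; limma, adjusted p = 0.328), and the scaffold Amot had 16.8 and 11.5 RPKM at 4 h and 10.1 and 10.0 RPKM at 7 h. Among targets, Amotl2 had 10.9 and 6.22 RPKM at 4 h and 9.07 and 7.11 RPKM at 7 h, against 25.7 and 24.7 RPKM in control embryos at 7 h. Ctgf had 3.52 and 3.88 RPKM at 4 h and 2.89 and 3.87 RPKM at 7 h, and Cyr61 had 5.17 and 5.18 RPKM at 4 h and 3.52 and 7.39 RPKM at 7 h. The log2 changes of these 3 targets were within 0.15 of 0 and their signs turned under other settings. In the BMP pathway 5 of 11 genes lay below (45.5%, against 24.2% of all genes) and none above (median -0.29). Its target Id2 had 39.2 and 40.7 RPKM at 4 h and 31.6 and 33.6 RPKM at 7 h.

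Of 26 junction genes of the expanding epithelium 8 lay below (30.8%, against 24.2% of all genes) and 1 above (median -0.19), where 13 of the 26 lay above in control embryos. The median was -0.09 with the length trend removed and reached -0.02 without 1 library. Cdh1, the adherens junction protein E-cadherin, had 166 and 134 RPKM at 4 h and 132 and 128 RPKM at 7 h, and Cldn4, a claudin, had 584 and 590 RPKM at 4 h and 649 and 618 RPKM at 7 h. Of 11 genes of fluid transport 6 lay below (54.5%, against 24.2% of all genes) and 1 above (9.09%, against 16.6%), with a median of -0.24. Atp1b1, the beta subunit of the sodium pump, had 68.5 and 68.1 RPKM at 4 h and 49.1 and 48.9 RPKM at 7 h (log2 change -0.48; limma, adjusted p = 0.472), and the water channel Aqp3 had 115 and 112 RPKM at 4 h and 90.9 and 101 RPKM at 7 h. For both genes the replicates were close at each time and the times did not overlap.

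DNA methylation genes had a median of -0.33, with 5 of 13 below (38.5%, against 24.2% of all genes) and 1 above (7.69%, against 16.6%). This median was -0.13 with the length trend removed and reached -0.07 without 1 library. Dnmt3b, a de novo methyltransferase, had 22.6 and 16.7 RPKM at 4 h and 12 and 13.1 RPKM at 7 h, against 31.4 and 31.9 RPKM in control embryos at 7 h. Trim28, the corepressor that protects imprints, had 217 and 222 RPKM at 4 h and 151 and 167 RPKM at 7 h. The 1 gene above was Dppa3.

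Targets of p53 had a median of 0.19, with 7 of 22 above (31.8%, against 16.6% of all genes) and 2 below (9.09%, against 24.2%). In control embryos their median was 0.36 with 19 of 22 above, where 25.3% of all genes lay above. Phlda3, an AKT inhibitor, had 102 and 99.6 RPKM at 4 h and 161 and 145 RPKM at 7 h, and Plk2, a stress-responsive kinase, had 19.0 and 13.1 RPKM at 4 h and 20.1 and 22.4 RPKM at 7 h. Txnip, which binds thioredoxin and limits glucose uptake, had 15.3 and 16.3 RPKM at 4 h and 24.4 and 21.6 RPKM at 7 h. The log2 changes of these genes in control embryos were 0.53 for Phlda3, 0.90 for Plk2, and 0.46 for Txnip. Plk2 passed the control test (limma, adjusted p = 0.00292), whose calls depended on the setting. For the integrated stress response the median was -0.09 (4 of 17 above, 2 below). Ddit3 (CHOP) had 13.2 and 16.2 RPKM at 4 h and 21.6 and 18.9 RPKM at 7 h, Cebpb had 8.47 and 6.06 RPKM at 4 h and 10.5 and 18.2 RPKM at 7 h, and Asns, the asparagine synthetase, had 7.74 and 5.94 RPKM at 4 h and 9.46 and 3.84 RPKM at 7 h. The unfolded protein response had a median of -0.11 (1 of 24 above, 3 below).

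Metabolic lists were divided. In cholesterol synthesis 7 of 23 genes lay above and 3 below (median 0.04), against 18 above and none below in control embryos (median 0.34). Cyp51, a sterol demethylase, had 53.7 and 48.9 RPKM at 4 h and 84.1 and 75.2 RPKM at 7 h, while Hsd17b7 had 8.55 and 7.44 RPKM at 4 h and 5.84 and 6 RPKM at 7 h. In glycolysis 8 of 22 lay above and 2 below (median -0.04), with Ldha at 3.98 and 3.03 and then 7.69 and 5.46 RPKM, and the glucose transporter Slc2a3 at 66.0 and 55.4 and then 40.9 and 51.0 RPKM. Of 27 antioxidant genes 9 lay above and 6 below (median 0.17). Besides the metallothioneins, Txn1 (thioredoxin) had 335 and 456 RPKM at 4 h and 703 and 564 RPKM at 7 h, and Hmox1, the heme oxygenase, had 33.7 and 34.7 RPKM at 4 h and 16.3 and 29.2 RPKM at 7 h. Lysosome and autophagy genes had a median of -0.10 (3 of 29 above, 7 below), and immediate early genes a median of 0.04 (2 of 13 above, 3 below). The shares below were 24.1% and 23.1%, near the 24.2% of all genes. Among 6 oocyte transcripts 1 lay above and 1 below, and the list of X inactivation and Y-linked genes had 2 of 5 below, both Y-linked. Ddx3y had 10.4 and 10.5 RPKM at 4 h and 9.14 and 3.5 RPKM at 7 h, and Eif2s3y 13.0 and 11.5 and then 9.41 and 4.09 RPKM. Both were lowest in replicate 2 of 7 h. The labels do not give the sex of the pooled embryos, so the share of males in a pool and the level per embryo cannot be told apart.

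Whether the change over time differed between inhibited and control embryos was tested as an interaction in 8 libraries. Of 11161 genes limma called 1 (0.00896%), Hist1h2ak, a replication-dependent histone H2A gene (ENSMUSG00000063021.3, GRCm38 chromosome 13, 21753435 to 21753827, minus strand). It had 0.523 and 0.824 RPKM at 4 h and 2.72 and 2.19 RPKM at 7 h with inhibitor, and 4.17 and 2.79 RPKM and then 0.241 and 0.327 RPKM in control embryos, a difference of 5.50 ± 0.687 on the log2 scale (limma, adjusted p = 0.0345). Without adjustment 6.82% of genes had a p under 0.05, with 1.99% higher and 4.83% lower than the control change, and 6.7% differed by at least 1 log2 unit. The libraries held 2 to 28 reads of Hist1h2ak. Among the 8 libraries, Hist1h2ak reached 1 RPKM only at 7 h with inhibitor and at 4 h in control embryos. Its inclusion thus rested on the libraries in which it was higher. The call was lost in 15 of 21 alternative settings, with limma adjusted p-values between 0.000699 and 0.99 and a difference between 1.07 (with a pseudocount of 5) and 6.02. It also falls outside the naming rule by its level, and it was named after its values were seen. Of the 19 tested histone genes 6 lay above and 1 below with inhibitor (median 0.44), and these near-identical genes are mostly not polyadenylated, so their values are uncertain.

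None of the other genes passed this test, and by the naming rule those with the smallest p above the control change were Rhox5 (1.79), Rpl38 (1.40), Atp5e (1.40), Rpl36a (1.14), and Mt1 (0.98). Those below it were Cyp4f39 (-1.42), Cyb561d2 (-1.13), Mia3 (-0.89), Slc20a1 (-0.89), and Gprc5a (-0.88), and the adjusted p of limma was 0.658 for each of the 10 genes. Cyp4f39, a fatty acid hydroxylase, had 12.4 and 8.94 RPKM at 4 h and 4.12 and 5.99 RPKM at 7 h with inhibitor, and 10.1 and 11.8 and then 13.3 and 14.3 RPKM in control embryos. Slc20a1, a phosphate transporter, had 60.8 and 56.2 and then 34.4 and 43.6 RPKM, against 57.0 and 63.9 and then 72.4 and 75.3 RPKM. In both genes the 7 h libraries lay below both 4 h libraries with inhibitor and above both in control embryos. The median difference over all 10866 genes was -0.21, against 0.43 for the small ribosomal subunit, 0.39 for the large subunit, and 0.51 for complex I.

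At 10 h of inhibition the ribosomal, respiratory, and proteasome lists, which had been higher at 7 h, stood below their level of 4 h. Median log2 differences from the mean of the 4 h libraries were -0.49 and -0.35 in the 10 h libraries for the small ribosomal subunit, -0.25 and -0.21 for complex I, and -0.47 and -0.37 for the proteasome. Some lists that had been lower stood higher, with 0.20 and 0.15 for mitosis, 0.32 and 0.31 for the Hippo pathway, and 0.37 and 0.41 for junction genes. The genes under 1000 bases were at -0.17 and -0.18 and those over 8000 bases at 0.35 and 0.29, so that the slope on length was also reversed. Other lists kept their side, with 0.20 and 0.27 for p53 targets, -0.21 and -0.18 for aminoacyl-tRNA synthetases, -0.25 and -0.21 for the unfolded protein response, and -0.22 and -0.26 for lysosome and autophagy genes. These values share the 4 h libraries with the comparison above and are given as levels only. Control libraries of 10 h were set against the control 4 h mean. Their medians were -0.029 and -0.055 for the small subunit, 0.058 and -0.04 for complex I, and 0.03 and 0.011 for the proteasome. Mitosis stood at 0.079 and 0.135, the Hippo pathway at 0.152 and 0.181, and junction genes at 0.266 and 0.287. For p53 targets they were 0.447 and 0.321, and for all tested genes 0.131 and 0.13. The synthetase, unfolded protein response, and lysosome lists had positive values in both. Amotl2 was at 1.43 log2 units and Txnip at 1.09 above the mean of 4 h, and Rhox5 was 0.74 below it. In control embryos each of these genes moved to the same side. Txnip had 5.77 and 12.5 RPKM at 4 h and 20.7 and 16.1 RPKM at 10 h. Amotl2 had 19.0 and 19.6 and then 27.1 and 30.9 RPKM, and Rhox5 had 23.2 and 15.3 and then 11.3 and 14.3 RPKM.

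Leaving out each 7 h library in turn changed how many genes passed. Without replicate 1, limma called 28 genes, 14 in each direction, and without replicate 2 it called 733 genes, 308 higher and 425 lower. A set of 12 genes passed in both fits, which is 42.9% of the first list and 1.64% of the second, each in a constant direction. The 7 higher genes included Oxt, Fgfbp3, and Rhox5, described above, and Epo, the erythropoietin gene, with 1.49 and 0.541 RPKM at 4 h and 5.10 and 4.23 RPKM at 7 h. The others of the 7 were Hist1h2bj, Scarna17, and Gm13840, and the 5 lower ones AC139579.1, AC124712.1, CT025667.1, Gm17768, and Gm6020. Of these, Gm17768 and Gm6020 had 0 reads in both 7 h libraries and CT025667.1 had 0 and 2, so that they were tested only through their level at 4 h. Epo, Hist1h2bj, and Scarna17 reached 1 RPKM in a single library of 4 h, so they were tested only through their level at 7 h. At 4 h Epo had 31 and 10 reads, Hist1h2bj 12 and 4, and Scarna17 0 and 3. In these fits the single library of 7 h was assumed to vary as the 4 h libraries did, and the fits share those libraries.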

How the data were processed

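Whole-blastocyst poly(A) mRNA was sequenced as 50-base single-end reads. Per the labels, the authors trimmed reads with Trim Galore 0.4.1, aligned them to GRCm38 with HISAT2 2.0.5, used SeqMonk for counting per gene, and deposited log2 RPKM values per gene, in which genes without reads hold a small floor value. Strand setting and treatment of multi-mapping reads are not given in the sources used here. Whole reads were recovered from these values for 34243 of 34245 genes (99.99%, tolerance 0.02 reads), which gave the depth of each library.

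The log2 values of genes with at least 1 RPKM in 2 of the 4 libraries were fitted with limma 3.58.1 in R 4.3.3 (empirical Bayes with trend, no pseudocount, Benjamini-Hochberg threshold 0.05), for 4 h against 7 h within each treatment and, over 8 libraries, for the difference. The script was tested on simulated data. A gene lies above or below where both 7 h libraries do so relative to both 4 h libraries. Named genes were the 10 in each direction (5 for the difference) with the smallest p among non-predicted genes of above-median level, without overlap between libraries for the time comparison, plus 24 genes fixed by name. The genes and 37 lists were chosen with earlier results of these data known. Alternatives were other thresholds, filters, pseudocounts, normalizations, removal of length or GC trends, voom on recovered reads, a replicate block, a fit to all 12 libraries, and leaving out each library. Motifs and promoters came from RefSeq tables of GRCm38.p6.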

Additional observations from a re-analysis of the deposited data

Results flagged for a closer look

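The change of Hist1h2ak from 4 h to 7 h differed between inhibited and control embryos by 5.50 on the log2 scale (limma interaction, adjusted p = 0.0345). It was marked because this test of the difference itself passed, and it rests on 2 to 28 reads per library of a histone gene with near-identical copies. The gene was included only through the libraries in which it was higher, those of 7 h with inhibitor and of 4 h in control embryos. The call was lost in 15 of 21 alternative settings, in which the difference ran from 1.07 to 6.02.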

How the results depend on the processing

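The count of 1 called gene with inhibitor became 0 by limma without trend (692 genes at an unadjusted p under 0.05), after median centring (963), quantile normalization (1002), no filter (1420), and length (910) or GC (981) trend removal, by voom on recovered reads (1014) or on reads thinned to one depth (770, chosen after seeing the data), and at a threshold of 0.01 (1031). It became 3 at 10 RPKM or more, 5 in the fit to 12 libraries, and 78 with the replicate block. Leaving out 1 library gave 0 to 733 calls: 28 without replicate 1 and 733 without replicate 2 of 7 h, and 0 without replicate 1 (315 unadjusted) or 2 (1229) of 4 h. The deviations of same-numbered samples correlated at -0.089 between times with inhibitor, 0.064 in control embryos, 0.001 between treatments at 4 h, and 0.143 at 7 h, so replicate numbers were not taken as pairs. The 53 control calls became 5 without trend, 12 at 10 RPKM or more, 8 by voom, 1 by thinned voom, and 0 after centring (320 unadjusted), quantile normalization (327), no filter (847), the 12-library fit (312), the replicate block (426), and length (399) or GC (313) removal, and lay between 8 and 56 without 1 library. The 1 call of the difference became 0 without trend (586), after centring (617), quantile normalization (691), no filter (1296), at 10 RPKM or more (515), in the 12-library fit (1397), with the replicate block (699), after length (659) or GC (640) removal, by voom (895) or thinned voom (738), and at 0.01 (761), and lay between 0 and 301 without 1 library, with 301 without replicate 2 of 7 h with inhibitor. The causes were not tested.

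Among the named genes, signs turned as follows. After median centring, Cdx2 was at 0.083, Gata3 0.015, Fgf4 0.013, Amotl2 0.078, and Cyr61 0.096. After quantile normalization Pou5f1 was at -0.241, Amotl2 0.063, and Cyr61 0.067. With the GC trend removed Cdx2 was at 0.031, Amotl2 0.03, and Cyr61 0.047, with the length trend removed Amotl2 at 0.125, with a pseudocount of 5 Cyr61 at 0.014, by voom Cyr61 at 0.071, and by thinned voom Fgf4 at 0.006. Without 1 library, values ran from -0.293 to 0.051 for Nanog, -0.099 to 0.032 for Cdx2 (0.003 without replicate 2 of 4 h), -0.217 to 0.015 for Gata3, -0.429 to 0.224 for Fgf4, -0.446 to 0.37 for Amotl2, -0.354 to 0.066 for Ctgf, -0.554 to 0.514 for Cyr61, and -0.82 to 0.482 for Asns.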
